A study of Mus musculus with 8 samples.

Results

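Distal open chromatin was described here through the 1000 most accessible sites of wild-type regulatory T (Treg) cells that lie away from gene ends. From the authors' table of ATAC-seq counts over 57199 peaks, the sites on chromosomes 1 to 19 more than 2500 bp from both ends of every RefSeq protein-coding gene were taken, which left 39949 distal sites. The 1000 with the highest mean CPM (each count divided by its library's total and multiplied by 1000000) over the 4 wild-type libraries were kept, from 411 CPM down to 59.1 CPM. Wild-type levels therefore chose the sites and are given below as a description. A site may lie inside a gene, and sites on the X chromosome, where Foxp3 lies, were outside the rule.

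ATAC-seq reads open DNA by letting a transposase insert sequencing adapters into it. The sort took splenic Treg cells of mixed bone-marrow chimeras as CD45.2+CD45.1-CD4+Foxp3-YFP+ cells, so both groups were taken on a Foxp3-driven fluorescent protein. In the WT group the sorted cells came from WT mixed BM chimera mice, and in the Flcn KO group from Foxp3CreFlcnfl/fl mixed BM chimera mice, in which the Cre recombinase that removes floxed Flcn is driven by Foxp3. The labels name 4 biological replicates per group and give no age, and they do not describe the competing donor cells beyond the CD45 forms. Chromatin is a population average here, so a site open in fewer cells and a site less open in each cell cannot be told apart.

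Distal open sites include enhancers, insulators and transcript starts that lie inside genes or belong to noncoding RNAs. Enhancers can act over long distances and can skip the nearest gene, so the gene named beside a site below gives its position and not its target. Folliculin, the product of Flcn, works at the lysosome in amino acid signalling and holds TFEB and TFE3, which switch on lysosomal genes, in the cytoplasm.

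The libraries held 2723344 to 5111728 counts, and the median member held 226 to 414 counts per library, with no member below 88 in any. All 1000 members passed the filter on low counts. The defining T and Treg cell markers all had peaks inside or within 5000 bp of them (8 of 8, summed CPM of 1186 in WT and 1282 in Flcn KO), while Cd79b, Ms4a1, Lyz2, Csf1r and Ncr1, markers of B, myeloid and natural killer cells, had none. Peaks at the other markers of those types summed to 73.1 CPM (WT) and 65.2 CPM (Flcn KO) for 2 of 5 B cell genes, 43.8 and 41.1 CPM for 3 of 5 myeloid genes, and 60.9 and 55.0 CPM for 4 of 5 CD8 T and NK genes. By gene the types overlapped: in WT the B cell gene Cd79a held 54.0 CPM, beside 24.8 at Cd3e and 50.9 at Cd4. Ikzf2 and Ctla4 held 434 and 296 CPM of the T and Treg sum in WT. Around Flcn itself (chromosome 11, 59791408 to 59810039), 4 peaks together held 25.3 ± 6.05 CPM in WT against 26.0 ± 7.32 in Flcn KO (SD, n = 4). The 2 that could be tested were not called. At the other 2, inside the gene and too low to be tested, WT libraries held 0 to 0.502 CPM and Flcn KO libraries 0.391 to 7.71 CPM. The labels do not say which part of Flcn is removed, so the genotype is not checked by these peaks.

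A first feature of the sites is how many sit on an annotated transcript start. RefSeq windows from 250 bases before to 50 bases after a start were used for this, on every chromosome but 18. Of the 963 members there, 197 (20.5%) overlapped such a window, beside 1179 of the 37541 other distal sites (3.14%) and 2117 of the 2604 sites near gene ends that were at least as accessible as the members (81.3%). The starts of protein-coding transcripts accounted for 139 members and those of noncoding RNAs alone for 58. The first are internal starts, since the rule had removed the outer ends of these genes. Members were also wider than other distal sites, with a median width of 572.5 bp against 330.0 bp. Among sites at least 500 and under 700 bp wide, 16.7% of members and 6.84% of other distal sites overlapped a start window, and among those at least 300 and under 500 bp wide, 17.3% and 3.02%.

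The upstream 250 bases of 4 such starts among the 15 highest-ranked sites are shown because they span the range of CpG content, with each CpG dinucleotide in capitals. They are from RefSeq in build GRCm38.p6, 5′ to 3′ on the strand of the transcript. The internal start of Slc39a10, which encodes a zinc importer, is at chr1:46853619-46853868 on the minus strand, and that of Hdac4, a histone deacetylase gene, at chr1:92180342-92180591 on the minus strand. Gm51814 is a noncoding RNA whose start lies at chr10:19062529-19062778 on the plus strand, on a site 46.6 kb from Tnfaip3. The Fhit window, inside a nucleotide hydrolase gene at a known fragile site, is at chr14:10453459-10453708 on the minus strand.
Slc39a10: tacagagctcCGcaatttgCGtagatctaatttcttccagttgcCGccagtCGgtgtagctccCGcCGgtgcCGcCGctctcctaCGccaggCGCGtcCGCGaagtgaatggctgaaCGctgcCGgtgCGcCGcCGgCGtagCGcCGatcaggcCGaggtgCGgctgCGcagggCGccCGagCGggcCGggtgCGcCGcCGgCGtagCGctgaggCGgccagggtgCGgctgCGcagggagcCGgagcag
Hdac4: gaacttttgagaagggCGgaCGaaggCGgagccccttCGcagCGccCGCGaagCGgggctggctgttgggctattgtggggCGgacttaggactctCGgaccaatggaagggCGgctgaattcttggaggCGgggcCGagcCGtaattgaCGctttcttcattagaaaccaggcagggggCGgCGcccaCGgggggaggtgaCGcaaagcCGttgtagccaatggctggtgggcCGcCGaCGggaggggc
Gm51814: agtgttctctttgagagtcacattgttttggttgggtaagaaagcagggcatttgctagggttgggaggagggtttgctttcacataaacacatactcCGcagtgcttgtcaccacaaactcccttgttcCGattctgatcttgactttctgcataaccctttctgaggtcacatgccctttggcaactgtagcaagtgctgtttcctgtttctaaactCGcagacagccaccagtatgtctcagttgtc
Fhit: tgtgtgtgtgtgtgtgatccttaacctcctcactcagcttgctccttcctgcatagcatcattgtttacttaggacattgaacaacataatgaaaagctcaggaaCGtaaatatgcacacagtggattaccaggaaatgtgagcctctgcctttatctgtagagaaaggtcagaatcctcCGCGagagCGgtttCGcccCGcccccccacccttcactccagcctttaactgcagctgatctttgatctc
These windows hold 37, 23, 3 and 6 CpGs in that order. The first pair are CpG-dense, while Gm51814 and Fhit are CpG-poor, with 46.4% and 48.0% G and C.

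Over the 243 distinct start windows under members, the median number of CpGs in the 250 upstream bases was 15, beside 9 under other distal sites (1364 windows), 18 under sites near gene ends (10064 windows) and 6 over all 32817 windows. In this paragraph, sites near gene ends are all peaks outside the distal set, with those on X, Y or scaffolds. They were not matched to the members in accessibility (median 14.0 CPM in WT). The ratio of observed to expected CpGs exceeded 0.6 in 61.3% of the windows under members, in 40.1% under other distal sites and in 77.1% near gene ends. Several named motifs, not all of them given here, were searched in the same 250 bases on both strands. The TCF/LEF letters CTTTGAT were in 16 of the 243 windows under members (6.58%), beside 3.21% of all windows and 2.49% of those under other distal sites. The ETS letters AGGAAGT were in 7.0% under members and 7.69% of all windows, and the AP-1 letters TGANTCA in 4.12% and 6.75%. The E-box CACGTG was in 6.17% and 6.02%, and its longer form TCACGTGA, bound by TFEB and TFE3 and containing the E-box, in 4 windows under members (1.65%), 0.79% of all and 1.83% of those under sites near gene ends. Under other distal sites the ETS and AP-1 letters were in 12.5% and 8.65%, and near gene ends the TCF/LEF letters were in 2.18%. Other motifs searched also differed in both directions. The CREB motif was in 2.88% under members and 1.55% of all windows, and the forkhead motif in 3.70% and 3.16%. The STAT motif was in 4.53% and 7.01%, the IRF motif in 2.06% and 2.97%, and the RUNX motif in 4.12% and 4.39%. The 243 windows lay under 197 members and some of them overlap, so the same match can count in more than 1 window. All of these are letter matches, described without a test, and do not show binding.

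Examples of the matches, with the matched letters in capitals and 15 bases or fewer on each side, come from starts under the 35 highest sites. Fhit holds a TCF/LEF and a forkhead match (TGTTTAC), at chr14:10453459-10453483 and chr14:10453625-10453661 on the minus strand. Lrif1, which encodes a nuclear receptor interactor, holds a TCF/LEF match at chr3:106721561-106721597, and the noncoding RNA 1700028E10Rik inside Stard13 another in reverse at chr5:151368430-151368466. Kdm4c, a histone demethylase gene, holds a pair of E-boxes at chr4:74251779-74251814 and chr4:74251811-74251846.
Fhit TCF/LEF: ttaactgcagctgatCTTTGATctc
Fhit forkhead: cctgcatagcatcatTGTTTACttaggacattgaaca
Lrif1: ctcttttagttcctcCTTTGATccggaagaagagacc
1700028E10Rik: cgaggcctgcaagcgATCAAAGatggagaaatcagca
Kdm4c first: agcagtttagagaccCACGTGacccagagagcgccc
Kdm4c second: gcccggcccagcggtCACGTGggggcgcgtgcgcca

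Starts were most frequent at the very top of the ranking. Of the 50 highest sites, 22 of the 48 off chromosome 18 overlapped a start window (45.8%), against 18.4% of the 200 lowest-ranked members. Between those, the share lay between 16.2% and 26.6%.

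**Figure D1:**
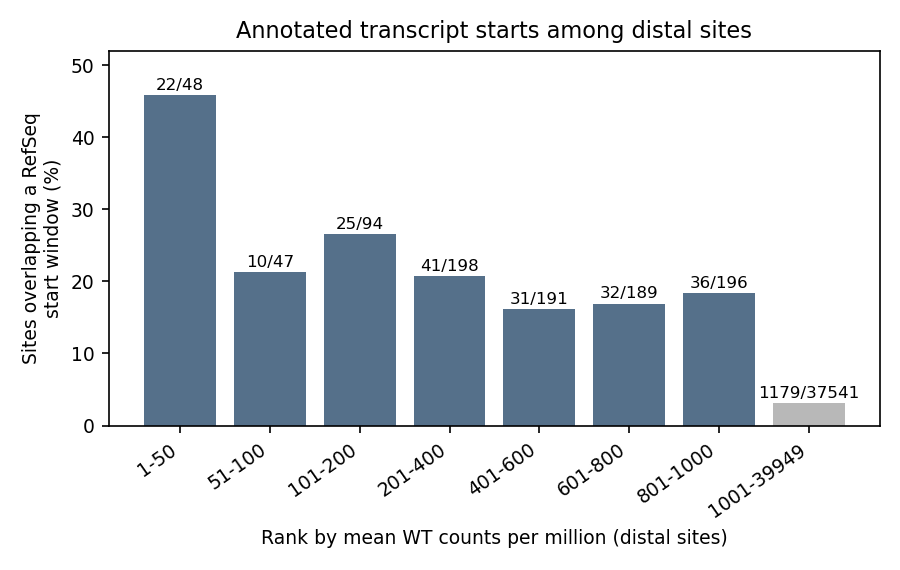
Share of distal sites overlapping a RefSeq start window (percent) by rank of mean WT CPM, with the counts above the bars and the grey bar for all other distal sites. The 50 highest sites stand at 45.8%, lower-ranked members between 16.2% and 26.6%, and other distal sites at 3.14%.

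Members at a start and members away from one had similar levels per length, with medians of 141 and 139 CPM per kb in WT. Of the 766 members assessed and on no start window, 405 lay inside a protein-coding gene, 228 outside genes but within 50000 bp of one, and 133 farther away. In all, 58.3% of members and 56.2% of other distal sites were inside a gene, and 14.3% of both lay beyond 50000 bp. The farthest was 1411 kb from its nearest gene, Cntnap5b. Noncoding RNA genes overlapped 19.6% of members and 13.0% of other distal sites. Members made up 3.48% of the distal sites of chromosome 16 and 3.29% of those of chromosome 13, but 1.03% on chromosome 11 and 1.09% on chromosome 19.

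A few of the sites accompany microRNA genes, which encode short RNAs that repress messages through a seed of bases 2 to 8. Of the 963 members on the chromosomes covered, 6 lay within 2000 bp of an annotated hairpin, and the mature sequences of 3 of these loci are shown because these microRNAs are well studied, with the seed in capitals.
let-7i-5p: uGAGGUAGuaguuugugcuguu
miR-17-5p: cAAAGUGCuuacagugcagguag
miR-20a-5p: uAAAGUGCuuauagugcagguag
miR-18a-5p: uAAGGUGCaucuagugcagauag
miR-22-3p: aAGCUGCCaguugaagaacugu
miR-17-5p and miR-20a-5p carry the same seed, AAAGUGC. The let-7i hairpin lies within the site at chr10:122985228-122986426, which had 65.6 ± 10.1 CPM in WT against 59.3 ± 4.96 in Flcn KO (SD, n = 4). The site 1271 bp before Mir17, at chr14:115041787-115042400, had 99.1 ± 9.75 and 107 ± 6.94 CPM. The site 1989 bp before Mir22, on the start of its host RNA, had 71.9 ± 8.67 and 71.5 ± 10.4 CPM. None of the 6 sites was called between the genotypes.

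The highest site of all lay inside Impact, which encodes an inhibitor of the amino acid sensing kinase GCN2, at 12973070 to 12974615 of chromosome 18. It held 378, 408, 437 and 422 CPM in WT replicates 1 to 4 and 390, 470, 488 and 471 CPM in Flcn KO. The groups overlapped, and the site was not called (edgeR log2 change of Flcn KO over WT 0.15 with SE 0.08 and adjusted p = 0.437). The next was the internal start of Slc39a10 shown above, with 330, 352, 436 and 406 CPM in WT against 288, 401.4, 390 and 426 in Flcn KO. Its groups overlapped, with Flcn KO replicate 1 below every WT library. Then came a site 44.7 kb from the zinc-finger gene Zfp958, with 373 ± 11.2 CPM in WT against 358 ± 21.8 in Flcn KO (SD, n = 4). The start of Gm26901, 224 kb from Pcmtd1, had 358 ± 37.2 and 385 ± 26.2 CPM. The Fhit start had 354 ± 27.9 and 359 ± 65.5 CPM.

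The sixth was the only one of the 10 highest whose groups did not overlap, beside 7.8% of members and 7.65% of all tested peaks. It lies 15.5 kb from Gtpbp4, a ribosome biogenesis gene, and held 316, 317, 314 and 326 CPM in WT against 377, 344, 348 and 377 in Flcn KO. All 4 Flcn KO libraries were above all 4 WT libraries, but the difference did not pass the test (edgeR log2 change 0.19 with SE 0.08 and adjusted p = 0.225). The remaining 4 lay inside the hyaluronan synthase gene Has1, 7.96 kb from Slc2a3, which encodes the glucose transporter GLUT3, inside Uggt2, a protein-folding sensor gene, and 34.7 kb from Nlrp4f. Their means ran from 266 to 281 CPM in WT and from 243 to 278 CPM in Flcn KO. None of the 10 highest was called.

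**Figure D2:**
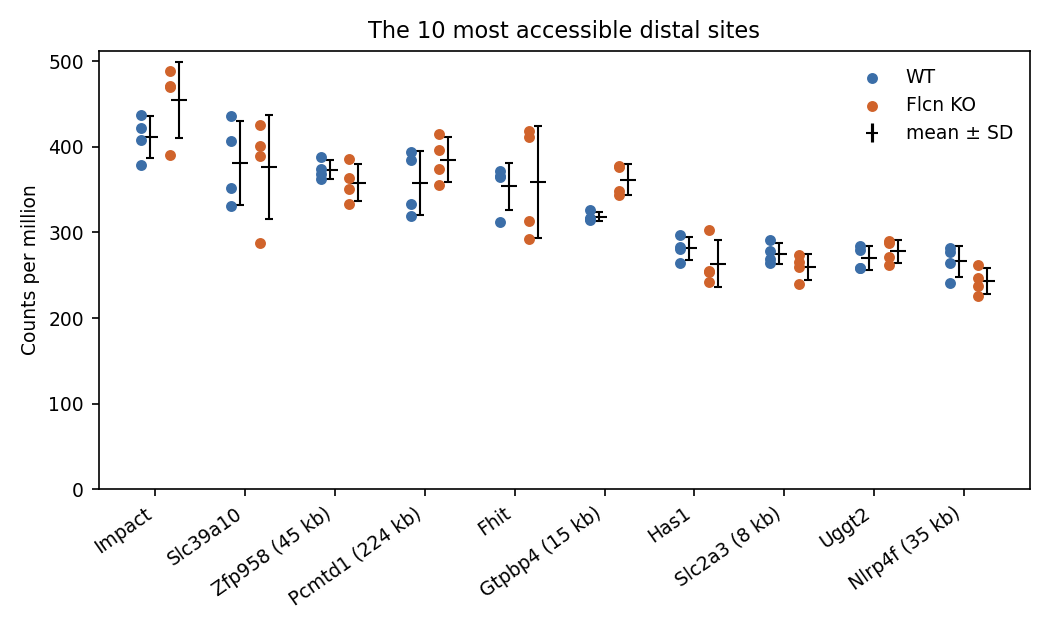
CPM in each library at the 10 most accessible distal sites, named by the gene they lie in or the nearest gene with its distance; points are libraries, bars mean ± SD of 4. The Gtpbp4 site alone shows no overlap between the groups, at 314 to 326 CPM in WT and 344 to 377 CPM in Flcn KO. Over all members, 7.8% showed no overlap.

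At the other end, the choice of 1000 cut through a continuum. The last members, near Kif2a, inside Slc12a8 and near Adipoq, had 59.12, 59.09 and 59.08 CPM in WT, and sites just outside the choice, inside Tmtc4 and near Rpap2, had 58.98 and 58.97 CPM. The SD between WT libraries at these sites was 3.19 to 13.7 CPM.

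By nearest gene within 50000 bp, 857 members fell to 745 genes, of which 660 had 1 member, 66 had 2 and 19 had 3 or more. Cblb, which encodes a ubiquitin ligase that restrains T cell activation, held 5 members inside the gene, of 31 distal sites there, at 61.8 to 147 CPM in WT and 59.7 to 161 CPM in Flcn KO. Their log2 changes lay between −0.04 and 0.26 and none was called. Stk39, which encodes a stress-responsive kinase, also held 5 inside it, of 32 distal sites.

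One of the Stk39 members, at 68430369 to 68430899 of chromosome 2, was called higher. It held 163, 185, 169 and 161 CPM in WT against 196, 183, 267 and 252 in Flcn KO, so that 1 Flcn KO library fell within the WT range. Its log2 change was 0.41 with SE 0.10 (edgeR adjusted p = 0.0199), and the call ended in 5 of the 8 fits that each left out 1 library (adjusted p up to 0.151).

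Tnfrsf1b, which encodes the tumour necrosis factor receptor TNFR2 that Treg cells use, had 4 members among only 8 distal sites. They held 67.3 to 182 CPM in WT, and 1 of them was called higher, inside the gene on chromosome 4 (145221431 to 145222434). It went from 82.5 ± 8.13 to 106 ± 8.56 CPM (SD, n = 4; edgeR log2 change 0.37 with SE 0.10 and adjusted p = 0.0389). WT libraries held 93.0, 80.9, 73.3 and 83.0 CPM there and Flcn KO libraries 117, 109, 100 and 98.8 CPM, without overlap. That call held in 2 of the 8 fits without 1 library. The other 3 were not called, with log2 changes from −0.11 to 0.00.

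Cd47, whose product signals against engulfment, had 4 members (log2 changes 0.08 to 0.16), Pde4d, a cyclic AMP phosphodiesterase gene, 4 (−0.14 to 0.17), and Trio, a guanine nucleotide exchange factor gene, 4 (0.01 to 0.05). Ago2, which encodes the slicer Argonaute of microRNA silencing, had 3 (−0.21 to 0.09), and Atxn7, which encodes a chromatin-modifier subunit, 3 (−0.13 to 0.04). No member of these genes was called.

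The gene lists of T cell biology held 0 to 9 members each, too few to rank them, and no list was tested against the others. Over all genes, 857 of the distal sites within 50000 bp were members, the reference for the following counts being 2.5% of such sites. Of the distal sites of 14 NF-kB and TNF receptor genes, 8 of 88 were members (9.09%), 4 of them at Tnfrsf1b, and of those of 20 AP-1, NFAT and antigen response genes, 6 of 122 (4.92%). TCR and costimulation genes had 9 of 265 (3.4%), chemokine, adhesion and trafficking genes 2 of 60 (3.33%) and cytokine receptor and STAT genes 4 of 127 (3.15%). Treg identity genes had 5 of 204 (2.45%), lymphoid transcription factor genes 5 of 262 (1.91%), naive and resting T cell genes 4 of 261 (1.53%), survival and death genes 1 of 85 (1.18%), and effector and tissue Treg genes 1 of 110 (0.91%). Lists for the lysosome, folliculin and MiT/TFE factors and for mTORC1 and AMPK had 0 members of 56 and 43 distal sites, and the B cell and myeloid lists 0 of 17 and 20. The CD8 T and NK list had 1 of 22, near Klrb1c.

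Beside the calls, a share of 2.37% of all 47859 tested peaks passed the test in either direction, 1.35% higher and 1.02% lower, and the median log2 change of all tested peaks was 0.004. In the NF-kB and TNF receptor list 1 member was higher, that of Tnfrsf1b, and 0 lower, with a list median of −0.01. The highest member of this list lay at the Gm51814 start 46.6 kb from Tnfaip3, which encodes the NF-kB inhibitor A20. It held 229, 239, 248 and 225 CPM in WT against 211, 281, 237 and 272 in Flcn KO, and was not called. Nfkb1, an NF-kB subunit gene, had a member inside it at 89.5 ± 22.5 and 76.7 ± 8.35 CPM (SD, n = 4; log2 change −0.22).

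In the antigen response list 1 of 6 members was higher and 0 lower, with a median of 0.12. A site 8.96 kb from Cd69, an early activation marker that holds lymphocytes in tissues, at 129284340 to 129285055 of chromosome 6, held 167, 180, 180 and 168 CPM in WT against 196, 204, 239 and 223 in Flcn KO. Every Flcn KO library was above every WT library there (edgeR log2 change 0.32 with SE 0.09 and adjusted p = 0.0362), and the call held in 2 of the 8 fits without 1 library (adjusted p up to 0.193). Sites near Fos and Nr4a1, inducible transcription factor genes, had 96.2 ± 8.90 and 84.4 ± 9.12 CPM in WT against 106 ± 19.9 and 95.0 ± 8.77 in Flcn KO (SD, n = 4). The site inside Nfatc1 had 73.4 ± 14.3 and 73.9 ± 13.2 CPM.

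The Cd69 site has called neighbours, singled out after their values were seen. Of 4 members between 128763992 and 129285055 of chromosome 6, a span of natural killer receptor genes, 3 were called higher. Over all tested peaks 1.35% were called higher, and the span was picked on its values, so its count is a description. Beside Cd69 the called members of the span are a site 10.2 kb from Klrb1b (129 ± 10.7 to 171 ± 20.01 CPM, SD, n = 4; log2 change 0.41) and one 4.53 kb from BC035044 (0.47). The Klrb1b call held in 3 of the 8 fits without 1 library (edgeR adjusted p up to 0.0932), the Cd69 call in 2 and the BC035044 call in 7. The fourth, 14.1 kb from Klrb1c, was at 0.21 and not called.

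None of the 9 members of the TCR and costimulation list, of the 5 Treg identity, 4 naive, 4 cytokine receptor, 2 trafficking or single effector Treg members was called; their list medians were 0.14, 0.18, 0.08, 0.16, 0.08 and 0.03. Among Treg identity genes, a site 33.7 kb from the inhibitory receptor gene Tigit had 90.6 ± 9.55 CPM in WT against 87.5 ± 8.68 in Flcn KO (SD, n = 4). A site inside Ikzf2, which encodes Helios, had 83.3 ± 4.82 and 98.1 ± 13.8 CPM. Sites near Izumo1r, the gene of the Treg folate receptor, and Tnfrsf18, which encodes GITR, had 73.5 ± 16.7 and 64.4 ± 5.87 CPM in WT against 68.2 ± 9.06 and 72.9 ± 3.66 in Flcn KO.

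Among resting-cell genes, the site inside Pik3ip1, a phosphoinositide 3-kinase inhibitor gene, had 157 ± 7.91 and 135 ± 15.5 CPM (SD, n = 4; log2 change −0.22). Sites near S1pr1 and inside Lef1 and Bach2 had 96.7, 84.5 and 75.8 CPM in WT against 101.2, 92.9 and 79.7 in Flcn KO. The trafficking list's 2 members lay 19.5 and 22.2 kb from Cxcr4, a chemokine receptor gene, at 64.6 and 114 CPM in WT. Inside Jak1, a cytokine receptor kinase gene, a member had 76.6 ± 18.8 CPM in WT against 96.2 ± 10.2 in Flcn KO (log2 change 0.33). Rora, a nuclear receptor gene, gave the single effector Treg member, at 82.2 and 83.6 CPM.

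In the lymphoid transcription factor list 1 of 5 members was higher, inside Tox, a chromatin factor gene of T cell development and exhaustion. It held 95.4, 111, 129 and 115 CPM in WT against 112, 156, 171 and 169 in Flcn KO, with 1 Flcn KO library inside the WT range (edgeR log2 change 0.44 with SE 0.12 and adjusted p = 0.0370; the call held in 2 of the 8 fits without 1 library). Members inside Ikzf1 and Elf1 and near Ets2 had log2 changes of 0.16, 0.09 and 0.13, and none was called. The single survival and death member, inside the death receptor gene Tnfrsf10b, was higher (70.2 ± 4.01 to 93.1 ± 5.86 CPM, SD, n = 4), a call that held in 2 of the 8 fits without 1 library.

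Outside the lists, sites chosen after their values were seen include the 23rd-ranked, 2510 bp from the end of Pdcd1, which encodes the inhibitory receptor PD-1, with 203 ± 18 CPM in WT and 197 ± 8.96 CPM. A further 4 members lay within 50000 bp of antigen receptor segments, the highest of them 2577 bp from a segment on chromosome 6 (187 CPM in WT, 200.3 CPM in Flcn KO). None of these was called.

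Across the 1000 members, levels in Flcn KO followed those in WT closely. The members took 8.81% to 9.42% of each WT library's counts (9.17 ± 0.27%, SD, n = 4) and 8.88% to 9.73% of each Flcn KO library's (9.29 ± 0.38%), so the groups overlapped. The median log2 change of the members was 0.02, with 556 of 1000 above 0. The quartiles of the members were −0.09 and 0.13, beside −0.23 and 0.30 for the other tested distal sites. Spread between replicates was also small: the median coefficient of variation was 9.84% in WT and 11.3% in Flcn KO, and 28.8% and 31.7% at other distal sites, which hold fewer counts.

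Of the 1000 members, 19 were called higher and 13 lower in Flcn KO, together 3.2%, beside the 2.37% of all tested peaks. WT libraries chose the members, so this count is a description. At an unadjusted p below 0.05 the members counted 100 higher and 72 lower, together 17.2%, beside 12.9% of all tested peaks and 14.97% of the other tested distal sites. The changes were modest: no called member reached 2-fold, while 768 of the 1133 peaks called over the whole table did (1.6% of those tested). The called members had medians of 0.43 and −0.54 log2 units, against 1.16 and −1.41 for all called peaks. Low-count peaks need a larger change to pass, and the median WT level was 78.6 CPM at members and 6.63 CPM over all peaks. The part of count level in this difference was not tested. None of the 197 members on a start window was called by edgeR (8 higher and 11 lower at an unadjusted p below 0.05, with 0 called by DESeq2 and 1 by voom). Of the 766 on no start window 19 were higher and 12 lower, and of the 37 on chromosome 18, not assessed for starts, the Csnk1g3 site was lower. Of the sites near gene ends at least as accessible as the members, 8 of 2704 were called (0.296%), and of the other tested distal sites 967 of 31137 (3.11%); these shares were not tested against each other.

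**Figure D3:**
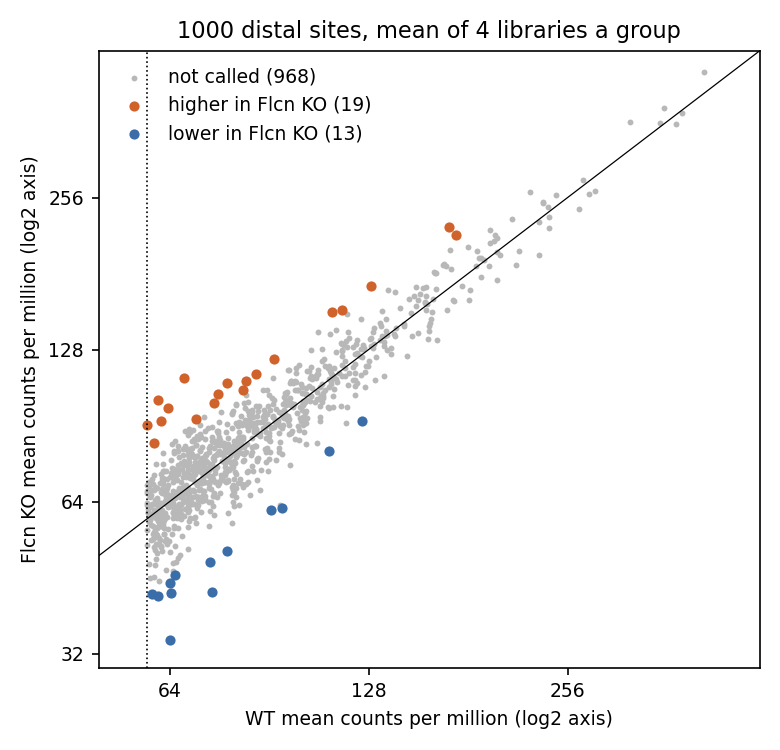
Mean CPM of the 1000 sites in WT (x) and Flcn KO (y), both on log2 axes, with called sites coloured, the line of equality and a dotted line at the lowest member. The 19 higher and 13 lower sites lie close to the diagonal, none at a fitted 2-fold change, and 19 of the 32 rank 501 or lower by WT level.

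The number of calls turned on which libraries chose the sites. Chosen on all 8 libraries, 1000 sites (941 of them members) gave 34 higher and 6 lower calls, and chosen on the Flcn KO libraries (889 shared) they gave 50 and 4. A choice on Flcn KO levels brings in sites higher in that group and drops lower ones, so the direction of this shift was fixed by the choice. In a comparison free of the choosing libraries, sites picked on WT replicates 1 and 2 and compared on WT replicates 3 and 4 against Flcn KO gave 9 higher and 3 lower calls, where 0.567% of all tested peaks were called (0.424% higher, 0.143% lower). Picked on WT replicates 3 and 4 and compared on replicates 1 and 2, they gave 11 higher and 14 lower, where 1.68% were called (0.809% higher, 0.874% lower). Over all tested peaks these fits called 220 higher and 74 lower, and 430 higher and 465 lower. Both differ from the full comparison in the choice of sites and in holding 2 fewer WT libraries. The WT pairs also differ in depth, with 4914976 and 4499889 counts in replicates 1 and 2 against 3986331 and 4122933 in 3 and 4. They lie on opposite sides of the leading axis of the members' deviations, given below. The part of each in the counts cannot be told apart. The medians of the chosen sites were 0.06 and 0.00.

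**Figure D4:**
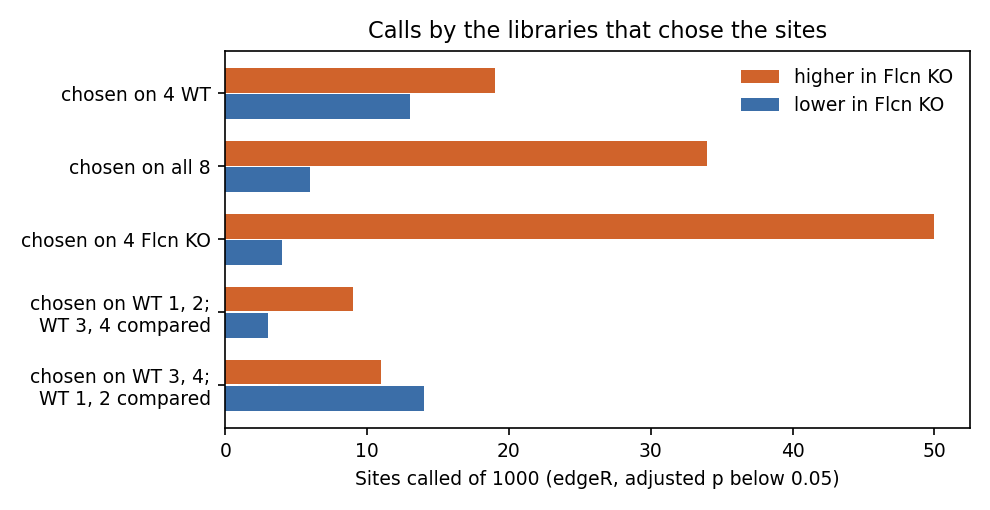
Number of 1000 distal sites called higher or lower in Flcn KO (edgeR, adjusted p below 0.05) by the libraries that chose them. Higher calls rise from 19 to 34 and 50 and lower calls fall from 13 to 6 and 4 as WT, all or Flcn KO libraries choose the sites. The direction of this shift is fixed by the choice. The lowest 2 pairs of bars use WT libraries that took no part in the choice.

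Among the called members, 14 of the 19 higher and 11 of the 13 lower showed no overlap between the groups' libraries; over all members this held for 7.8% and over all tested peaks for 7.65%. The lowest adjusted p was at a site inside Ostm1, 2999 bp from its end. Ostm1 encodes the partner of a lysosomal chloride transporter. At 42698986 to 42699463 of chromosome 10, WT libraries held 61.6, 58.2, 66.2 and 59.7 CPM and Flcn KO libraries 96.2, 95.2, 110 and 105 CPM. All Flcn KO libraries stood well above WT (1.66-fold, edgeR log2 change 0.73 with SE 0.10 and adjusted p = 2.27e-05), and the call held without any single library.

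Among sites without overlap, the largest rise was at a site 463 kb from Tox, at 7454974 to 7455602 of chromosome 4. It held 76.1, 63.6, 75.8 and 53.4 CPM in WT against 89.4, 98.8, 132 and 129 in Flcn KO, without overlap (1.67-fold, edgeR log2 change 0.74 with SE 0.13 and adjusted p = 0.000655). A site inside Slc12a8, a solute carrier gene, rose from 59.1 ± 6.38 to 90.9 ± 8.81 CPM (SD, n = 4; 0.63). One inside Impg1, a retinal matrix gene, rose from 63.7 ± 8.31 to 98.0 ± 22.5 CPM (0.62). A site 26.3 kb from Tet2, which encodes a dioxygenase that removes DNA methylation, held 48.4, 71.6, 70.2 and 58.2 CPM in WT against 119, 84.7, 79.0 and 85.9 in Flcn KO (0.59 with SE 0.13, edgeR adjusted p = 0.00649). Here replicate 1 was the lowest WT and the highest Flcn KO library.

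The other 5 of the 10 largest rises without overlap ran from 0.42 to 0.50. They were 13.2 kb from Casr, the calcium-sensing receptor gene, near BC035044, inside Mfhas1 and Lrrc74b, and 102 kb from Cxadr, a virus receptor gene. Of these, the Casr call held in all 8 fits without 1 library, the BC035044 call in 7, the Lrrc74b call in 5, the Mfhas1 call in 4 and the Cxadr call in 2.

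The largest fall of any member was inside Slco3a1, an organic anion transporter gene, at 74350197 to 74351767 of chromosome 7. It held 53.3, 76.9, 58.2 and 68.4 CPM in WT against 41.9, 35.04, 27.3 and 32.3 in Flcn KO, so that no library overlapped (edgeR log2 change −0.90 with SE 0.14 and adjusted p = 8.38e-05). Inside Hdc, which encodes the enzyme that makes histamine, a site held 83.0, 78.9, 68.2 and 66.2 CPM in WT against 56.3, 25.6, 48.8 and 38.9 in Flcn KO (−0.79 with SE 0.16, edgeR adjusted p = 0.00323). Both calls held without any single library.

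Sites inside Slc24a3, an ion exchanger gene, Cmip, an adaptor gene of T cells, Cd82, a tetraspanin gene, and Csnk1g3, a casein kinase gene, changed by −0.60, −0.60, −0.59 and −0.59. Their means fell from 94.6 ± 14.8 to 62.2 ± 11.6, from 78.1 ± 10.9 to 51.01 ± 10.4, from 64.3 ± 6.85 to 42.3 ± 4.71 and from 73.7 ± 10.7 to 48.7 ± 5.99 CPM (SD, n = 4), and each call held without any single library. A site 453 kb from Klf6, a zinc-finger factor gene, fell from 112 ± 10.9 to 80.7 ± 5.11 CPM (−0.46), and this call also held in all 8 such fits. The remaining 3 of the 10 largest falls without overlap were inside Wdr95 (−0.53) and Smap1 (−0.49), a membrane traffic gene, and 34.6 kb from Pttg1, the securin gene (−0.51). These held in 7, 3 and 4 of the 8 fits.

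**Figure D5:**
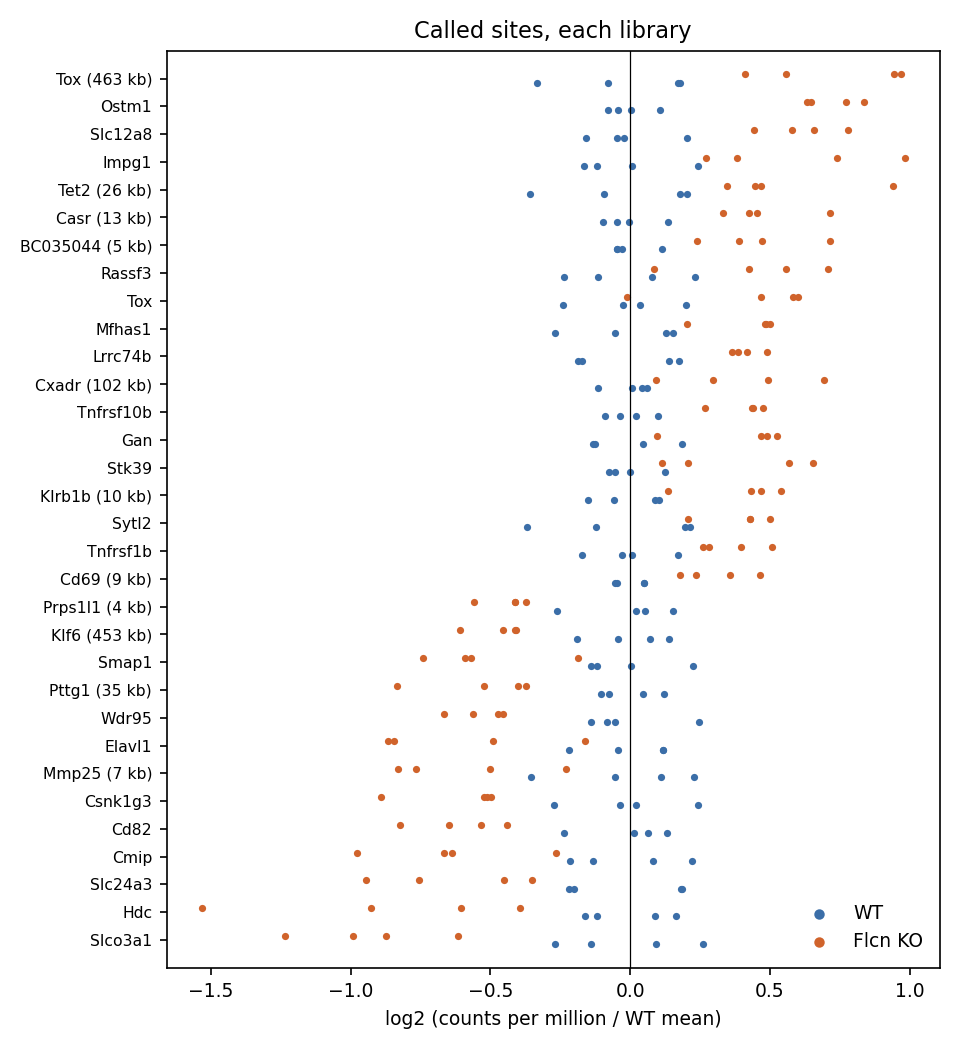
Each library's CPM over the WT mean (log2) at the 32 called sites, ordered by log2 change and named by the gene they lie in or the nearest gene with its distance. The higher sites top out at the Tox site (0.74) and the lower ones end at Slco3a1 (−0.90), and Flcn KO points of 5 higher and 2 lower sites reach into the WT range.

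By position, 21 of the 32 called members lay inside a gene, 8 outside but within 50000 bp, and 3 farther away. Of all members, 58.3% lay inside a gene and 14.3% beyond 50000 bp. Of the 32, 12 were called in each of the 8 fits without 1 library, 5 higher and 7 lower. Without Flcn KO replicate 1, the deepest library, 37 members were higher and 25 lower, where 3.61% of all tested peaks were called, and 31 of the 32 remained called. Without Flcn KO replicate 3 the counts were 7 and 13 (1.59% of all tested), and without replicate 4 of that group 8 and 10 (1.7%). Without WT replicate 1, 2 or 4 there were 11, 11 and 9 higher and 9, 9 and 15 lower members, where 1.66%, 1.34% and 1.67% of all tested peaks were called. Deviations of the members from their group means were led by one axis, 40.9% of their variance, on which WT replicates 1 and 2 and Flcn KO replicates 1 and 3 lay on one side and the other 4 libraries on the other. WT replicates 1 and 2 and Flcn KO replicates 1 and 3 were the deepest 2 libraries of each group. The part of depth in the calls was not tested.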

How the data were processed

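ATAC-seq libraries came from splenic Treg cells, 4 of WT and 4 of Flcn KO. The deposited values were the authors' read counts, not normalized, over 57199 peaks shared by all libraries. The submitters' processing notes name build mm10, the peak caller MACS2 2.1.1, the aligner BWA 0.7.16, bedtools 2.25.0, SAMtools 1.9, Picard 2.9.4 and Trimmomatic 0.36. Not given in the sources used here are the settings, duplicate removal, any shift of read ends and the pooling of libraries for peak calling. Between 88.7% and 92.7% of counts per library were even numbers. File starts are 0-based and are printed 1-based.

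Peaks were placed on RefSeq gene spans (GRCm38.p6, 21887 protein-coding genes). Counts passing filterByExpr (minimum count 10) were fitted for 47859 peaks with edgeR 4.0.16 (R 4.3.3), using TMM factors of 0.979 to 1.02, the robust quasi-likelihood test and Benjamini-Hochberg adjustment over all tested peaks. A peak was called at an adjusted p below 0.05, and fold changes are Flcn KO over WT. DESeq2 1.42.0, limma 3.58.1 (voom with sample weights), other scalings and filters, each library left out, other choices of the sites and a block on replicate number were alternatives. The scripts were tested on simulated data.

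The sites and gene lists were chosen with earlier results of these data known. Named sites were the 10 highest in WT, the 3 on each side of the choice, the 10 largest called changes in each direction whose groups did not overlap, the 8 genes with most members and, per list, up to 4 highest and 3 called members; any other was chosen after its values were seen. A site next to the choice and a marker gene are not reported here. The start windows, rank and width ranges, comparison with gene-end sites, motif search and chromosome 6 span were also chosen after the files were seen. The planned composition and motif search of the peaks themselves was not run, since no genome sequence was used here, and RefSeq start windows took its place. The p-values set the difference between the groups against the spread between the labelled biological replicates, estimated with information shared across peaks. No count carries a molecular identifier.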

Additional observations from a re-analysis of the deposited data

Results flagged for a closer look

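In 6 of the 180 groups of 4 libraries at the named sites, 1 library stood apart, by Dixon's test at the 95% level, which compares the gap to the nearest other library with the group's range; chance alone gives about 1 in 20. At the Fhit start, WT replicate 4 had 312 CPM, below the 364 to 372 CPM of the other WT libraries. At the BC035044 site, WT replicate 4 had 82.0 CPM against 73.3 to 74.3 CPM. In Flcn KO, replicate 2 was low inside Mfhas1 (86.0 CPM against 104 to 106 CPM) and inside Csnk1g3 (39.7 CPM against 51.3 to 52.1 CPM). Replicate 3 of that group was high inside Il6ra (88.3 CPM against 66.5 to 69.0 CPM) and at the Cd47 site 32.3 kb from the gene (80.0 CPM against 63.2 to 65.1 CPM). BC035044, Mfhas1 and Csnk1g3 are called sites.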

How the results depend on the processing

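The 19 higher and 13 lower calls moved with the choice of sites and with single libraries. Chosen on all 8 libraries there were 34 higher and 6 lower, and on Flcn KO libraries 50 and 4, a shift whose direction was fixed by the choice. Among the 500 and the 2000 highest sites there were 9 and 4, and 42 and 32, where 2.37% of all tested peaks were called. Chosen on WT replicates 1 and 2 and compared on the other WT pair there were 9 and 3, and with the pairs exchanged 11 and 14. These fits also hold 2 fewer WT libraries, and the WT pairs differ in depth. Leaving out 1 library gave 7 to 37 higher and 9 to 25 lower calls. With a replicate block, 21 were higher and 17 lower, where 2.87% of all tested peaks were called, with 32 of the 32 calls kept. The deviations of same-numbered libraries had r of −0.05 to 0.08 over tested peaks and −0.31 to 0.34 over the members. The replicate numbers were therefore not taken as pairs. DESeq2's Wald test kept 31 of the 32 calls and voom 32. The median change stayed between −0.01 and 0.07 in the alternatives run. Of the 25 named called sites, 12 kept their call in all 16 alternative fits, and no named site was called in opposite directions. Without Flcn KO replicate 1 the Slc39a10 start went from −0.01 to 0.11, still not called. Uncalled members inside Cblb (log2 change 0.26) and Stk39 (0.37) were each called in 1 of the 8 fits without 1 library. At the lowest members, smaller changes may not be detectable. The lowest count of any member, 88, was in Flcn KO replicate 4 at the Slco3a1 site, which was called lower.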
